A study of Mus musculus with 3 samples.

Results

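The genes described here encode the nuclear subunits of the mitochondrial respiratory chain and ATP synthase. They were taken from the deposited gene counts by symbol (names starting with Nduf followed by a, b, c, s or v, the 4 Sdh genes a to d, Uqcr, Cox4 to Cox8 and Atp5, with Cyc1 and Cycs), which gave 94 of the 32532 genes listed. The RNA came from the cortex-amygdala transition zone, where ventral cortex borders the amygdala, of adult, untreated control mice of the transgenic line Lypd1-EGFP/Rpl10a OI82. These mice express EGFP fused to ribosomal protein L10a in the cells where the Lypd1 regulatory DNA is active, and RNA on tagged polysomes was pulled down with anti-EGFP antibodies before sequencing. There was 1 group with 3 immunopurified libraries, replicates 1, 2 and 3. Whether a library pooled animals is not given in the sources used here. The spread between libraries may therefore be technical in part. No second group and no unpurified tissue RNA was analysed here, so every value is a level in captured RNA, and fewer cells of a type cannot be told apart from less RNA per cell.

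The respiratory chain sits in the inner mitochondrial membrane. Complex I (NADH dehydrogenase) and complex II (succinate dehydrogenase) pass electrons to ubiquinone, complex III (cytochrome bc1) passes them to cytochrome c, and complex IV (cytochrome c oxidase) passes them to oxygen, while complex V (ATP synthase) uses the resulting proton gradient to make ATP. Neurons depend heavily on this pathway for the cost of ion pumping and transmitter release. Of the 5 complexes only complex II is encoded wholly in the nucleus. The mitochondrially encoded subunits were not analysed here, and Usmg5 and 2010107E04Rik, complex V subunits under other symbols, fall outside the rule.

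Of the 94 genes, 85 encode subunits or cytochrome c, 7 encode complex I assembly factors and 2 (Atp5s and Atp5sl) carry the Atp5 symbol without being subunits. Ndufa4 and its relative Ndufa4l2 were counted with complex IV, to which the Ndufa4 protein is now assigned. The complexes then held 36 genes (I), 4 (II), 9 (III), 20 (IV) and 15 (V). Level was measured as CPM, a gene's count scaled by the total count assigned to genes in its library, and, wherever genes were compared with each other, as CPM per kb of annotated exon. Detection required at least 1 CPM in each of the 3 libraries.

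The libraries held 8668527 to 24690301 assigned counts, and replicate 3 had the least. A count of 0 allowed up to 0.162, 0.122 and 0.346 CPM in replicates 1, 2 and 3 (3 counts, counting error only). Neuronal markers were high in every library (4 of 4 detected, summed level 7350 to 14516 CPM), with most of each sum from Snap25. The other 3 summed to 1432, 1390 and 1033 CPM in replicates 1, 2 and 3. In replicates 1 and 3 that was below the astrocyte sum (1657 and 1095 CPM). The astrocyte sum, however, kept its own largest marker, Slc1a2, at 954 and 793 CPM in those replicates, so the 2 sums are not like for like. Summed markers of other cells ranged from 1079 to 1657 CPM for astrocytes (5 of 5 detected), 193 to 313 for oligodendrocytes (5 of 5), 9.68 to 32.8 for microglia (2 of 4) and 19.7 to 70.5 for mural cells (2 of 3). Libraries differed in composition. The nuclear RNA Malat1 took 3.45%, 1.44% and 8.25% of assigned counts in replicates 1, 2 and 3, and reads outside counted features were 31.4%, 25.6% and 45.3% of all entries.

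Respiratory chain transcripts were detected almost in full, and the genes that missed the detection rule were those listed as tissue-restricted. Of the 94 genes 86 were detected, against 12773 of all 32532 genes listed. The other 8 were the 8 genes listed as tissue-restricted isoforms or relatives of complex IV subunits, and all 77 remaining subunits and cytochrome c were detected. Some of the 8 passed 1 CPM in single libraries, such as Cox7a1 with 4.75 CPM in replicate 1 and Cox6b2 with 4.5 CPM in replicate 3. Together the 94 genes took 0.801%, 1.02% and 0.551% of assigned counts in replicates 1, 2 and 3. Measured per kb, 55 of the 77 broadly expressed genes lay above the 90th percentile of protein-coding genes averaging at least 1 CPM, and 2 lay below the median gene (Atp5g2 and Atp5l). The per-library levels of all 94 genes are drawn in the plot of CPM per kb by gene.

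**Figure D1:**
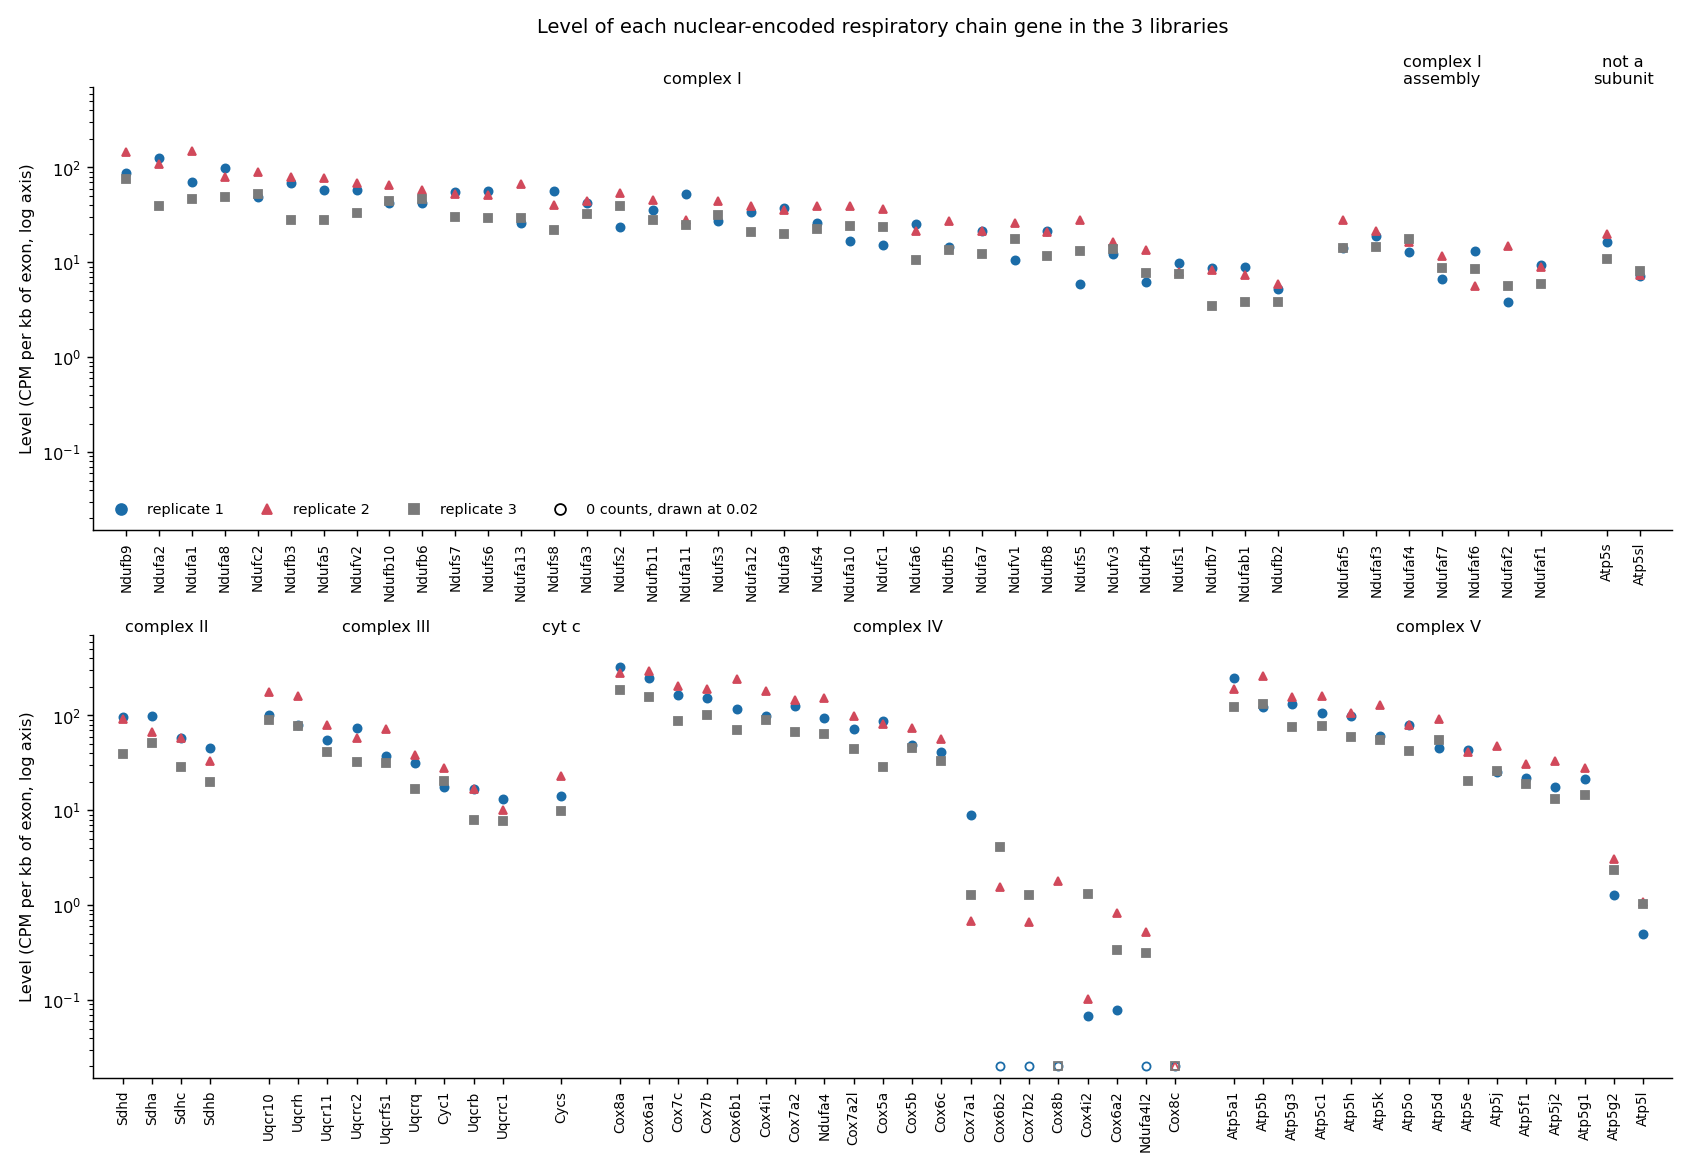
Level of each of the 94 genes in CPM per kb of annotated exon (log axis), grouped by complex and ordered by mean within a group; each point is 1 library, and open symbols mark a count of 0. Most genes lie between 5 and 300 CPM per kb in all libraries, and the 8 tissue-restricted complex IV isoforms fall far below the rest of their complex.

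Complex I genes had the lowest median of the 5 complexes, and complexes IV and V stood above it. In replicates 1, 2 and 3 the complex I median stood at 30.6, 39.8 and 24.3 CPM per kb. Complex II measured 77.3, 62.1 and 33.9, complex III 37.1, 58.3 and 31.5, complex IV 60.7, 77.3 and 38.9, and complex V 45.7, 80.2 and 41.8 CPM per kb. Within every library complex I was the lowest, although the ranges over libraries overlapped. All complexes were lowest in replicate 3.

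Taken within a library on the log2(CPM per kb + 0.1) scale, complex V exceeded complex I by 0.79 ± 0.21 (SD, n = 3) and complex IV exceeded it by 0.86 ± 0.17. The difference was 0.80 ± 0.44 for complex II, with 1.30, 0.64 and 0.46 in replicates 1, 2 and 3. For complex III it was 0.40 ± 0.13. Each of these 4 differences was positive in 3 of 3 libraries and larger than its SD over those libraries. That SD leaves out the spread among genes. On the same scale the SD among the genes of a complex was 1.10 (I), 0.57 (II), 1.22 (III), 4.11 (IV) and 2.16 (V). For complex IV it was 0.80 without the tissue-restricted genes. Complexes II, IV and V were not separated from each other, with differences of 0.06 ± 0.35 (IV minus II), −0.006 ± 0.612 (V minus II) and −0.07 ± 0.27 (V minus IV). These are summaries over chosen genes and carry no test.

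Which genes and which exons entered these medians mattered. Without the 8 tissue-restricted isoforms, complex IV measured 108, 167 and 68.3 CPM per kb, above the other 4 complexes in each library, and its difference from complex I was 1.79 ± 0.29. With the mean of members in place of the median, with all 20 genes included, that difference was −1.27 ± 0.34. With exons of transcripts paired with RefSeq records, a choice made after seeing the data, the complex III difference was −0.35 ± 0.41 and the complex II difference 0.22 ± 0.28, both smaller than their spread, while complexes IV and V stayed above complex I by 1.04 ± 0.23 and 1.07 ± 0.35.

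**Figure D2:**
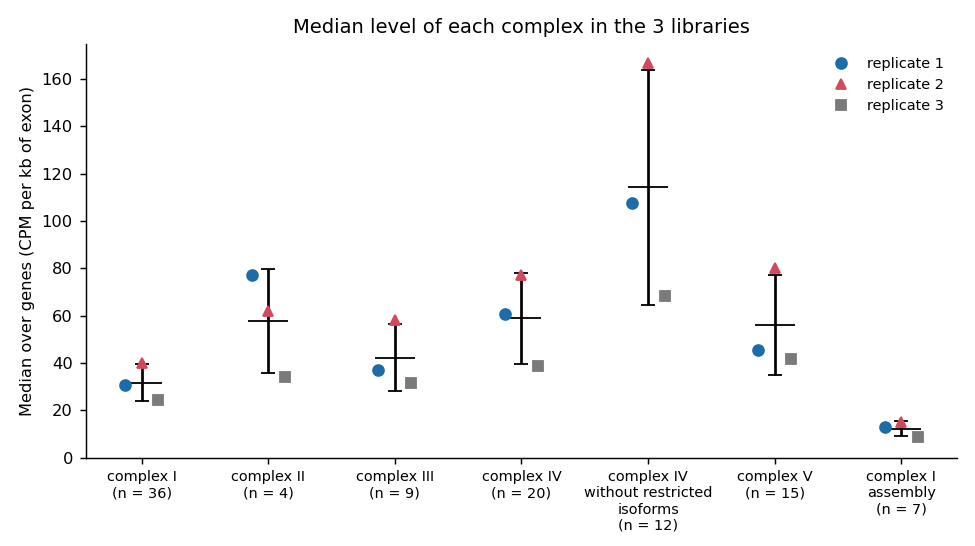
Median CPM per kb over the genes of each complex, with 1 point per library and, in black, the mean ± SD of the 3 library medians; n in the axis labels counts genes. Complex I lies below complexes II to V in each library, and complex IV is highest once its tissue-restricted isoforms are left out.

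Complex I is the largest of the complexes, with a matrix arm that holds the flavin and iron-sulfur centres and a membrane arm that pumps protons. Over all annotated exons its most abundant transcripts per kb were 3 accessory subunits, while RefSeq-paired exons placed Ndufb9, Ndufc1 and the core subunit Ndufs7 first. Ndufb9, of the membrane arm, measured 86.8, 147 and 75.3 CPM per kb in replicates 1, 2 and 3. Ndufa2, of the matrix arm, measured 126, 110.0 and 38.9, and Ndufa1, a small membrane-arm protein, 70.6, 148 and 46.5 CPM per kb. Ndufb9 and Ndufa1 were highest in replicate 2, Ndufa2 was highest in replicate 1, and all 3 were lowest in replicate 3.

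The 7 catalytic core subunits of complex I, which carry the electron transfer centres, were not set apart from the 29 accessory subunits per kb of exon. Their medians differed by 0.06 ± 0.35 on the log2(CPM per kb + 0.1) scale, positive in 2 of 3 libraries. Without length the core median was higher by 0.70 ± 0.26 on log2(CPM + 1), in 3 of 3 libraries, and with coding length the difference was −0.35 ± 0.15. Ndufv2, an iron-sulfur protein of the NADH-binding module, measured 53.5 ± 18.3 CPM per kb, the highest of the core over all annotated exons. With RefSeq-paired exons Ndufs7, another iron-sulfur protein, was higher (104 against 64.1 CPM per kb). Ndufv1, the subunit that binds NADH and flavin, measured 18.1 ± 7.86 CPM per kb. Ndufs1, the largest core subunit, measured 8.46 ± 1.29 over 8086 bases of annotated exon, and 25.7 on RefSeq-paired exons. The matrix-arm median minus the membrane-arm median was −0.23 ± 0.10 on that log2 scale, negative in 3 of 3 libraries. Without length, on log2(CPM + 1), it was 0.37 ± 0.22 and positive in 3 of 3, so its direction rests on exon length.

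The lowest complex I genes were Ndufb2 at 4.97 ± 1.07 and Ndufab1, the mitochondrial acyl carrier protein, at 6.68 ± 2.57 CPM per kb. The annotated exons of Ndufb2 cover 5628 bases, and on the 455 bases of RefSeq-paired exons its mean was 61.5 CPM per kb, so its place at the bottom rests on the annotation. For Ndufab1 that value was 13.2 CPM per kb, still the lowest of complex I.

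Assembly factors, which help to build complex I without remaining in it, were less abundant than its subunits. Complex I subunits exceeded them by 1.37 ± 0.12 on the log2(CPM per kb + 0.1) scale, in 3 of 3 libraries. The 7 genes measured 12.8, 14.9 and 8.73 CPM per kb (median) in replicates 1, 2 and 3. Ndufaf5, Ndufaf3 and Ndufaf4 led with 18.7 ± 7.80, 18.4 ± 3.58 and 15.6 ± 2.48 CPM per kb, and Ndufaf1 and Ndufaf2 were lowest with 8.0 ± 1.89 and 8.10 ± 5.93. With RefSeq-paired exons (678 bases in place of 2978) Ndufaf2 was the highest of the 7 at 35.6 CPM per kb, so its place rests on the annotation. Ndufaf2 was uneven, with 3.82, 14.9 and 5.62 CPM per kb in replicates 1, 2 and 3.

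All 4 complex II genes were highest in replicate 1 and lowest in replicate 3. Sdha, the flavoprotein that oxidises succinate, measured 98.2, 66.7 and 51.9 CPM per kb in replicates 1, 2 and 3. Its iron-sulfur partner Sdhb measured 45.6, 32.8 and 19.8. The membrane anchors Sdhc and Sdhd measured 58.1, 57.5 and 28.4, and 96.6, 91.1 and 39.4 CPM per kb. Their order by mean was Sdhd (75.7 ± 31.6), Sdha (72.3 ± 23.7), Sdhc (48.0 ± 17.0) and Sdhb (32.7 ± 12.9). Sdhd and Sdha differed by less than the spread of either gene. On RefSeq-paired exons Sdha led with 103 CPM per kb and Sdhc was lowest with 49.2, so the order depends on the exons counted. None passed the test of variation between libraries described below.

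In complex III 3 of the 5 small subunits had the highest levels per kb. Uqcr10 measured 100.2, 177 and 89.1, Uqcrh, the hinge protein, 80.0, 159 and 78.0, and Uqcr11 54.9, 79.3 and 40.9 CPM per kb in replicates 1, 2 and 3. All 3 were highest in replicate 2. Of the genes for proteins that carry the redox centres, the Rieske iron-sulfur protein gene Uqcrfs1 measured 46.7 ± 21.7 and the cytochrome c1 gene Cyc1 21.9 ± 5.17 CPM per kb.

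Of the core proteins, Uqcrc2 measured 54.9 ± 21.0 and Uqcrc1 10.3 ± 2.67 CPM per kb. Uqcrc1 was the lowest of complex III, followed by Uqcrb at 13.8 ± 5.09, and on RefSeq-paired exons they measured 25.9 and 22.6. Both core genes were highest in replicate 1, while the 7 other genes of the complex were highest in replicate 2. Cycs, the gene of somatic cytochrome c, measured 14.2, 23.2 and 9.76 CPM per kb, below the median of every complex in each library.

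Per kb of annotated exon, complex IV held the highest transcript levels of the chain. In CPM Atp5b and Atp5a1 of complex V were higher (means of 732 and 590.5), and with RefSeq-paired exons Atp5b (382) and Atp5g3 (366) exceeded Cox7c (320.4 CPM per kb), the highest of complex IV there. Its nuclear subunits surround a catalytic core that the mitochondrial genome encodes. Cox8a measured 328, 279 and 184 CPM per kb in replicates 1, 2 and 3. Cox6a1 measured 250.2, 296 and 156, and Cox7c 166, 206 and 87.5 CPM per kb. Cox8a lies on chromosome 19 at positions 7215153 to 7217616, minus strand, and Cox6a1 on chromosome 5 at 115345642 to 115348981, minus strand (GENCODE M21 on GRCm38, the assembly that mm10 names). All 12 broadly expressed genes of the complex were lowest in replicate 3, and 10 of them were highest in replicate 2.

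For each complex IV subunit with several isoforms, the form known from most tissues was far more abundant than the form of muscle, lung or testis. These differences are between an abundant gene and few counts, so their size depends on the pseudocount. Cox6a2, the heart and skeletal muscle form, measured 0.0794, 0.834 and 0.339 CPM per kb in replicates 1, 2 and 3, and the log2(CPM per kb + 0.1) difference from Cox6a1 was 9.08 ± 1.19, or 7.36 ± 0.49 with a pseudocount of 1. Cox4i2, the lung form, measured 0.0685, 0.103 and 1.32 against 98.1, 181 and 89.0 for Cox4i1 (difference 8.32 ± 2.06, or 6.39 ± 1.05 with a pseudocount of 1). The testis form Cox8c had 0 counts in every library, and Cox8a was at least 244-fold higher per kb, taking 3 counts per library as the floor for Cox8c. The muscle form Cox8b had 0, 16 and 0 counts.

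The other restricted forms had few counts but were not all at 0. Cox6b2, a testis form, had 0, 43 and 39 counts (0, 1.74 and 4.5 CPM), and Cox7b2, also of testis, had 0, 9 and 6 counts. Ndufa4l2, a hypoxia-induced relative of Ndufa4, had 0, 14 and 3 counts. Cox7a1, the heart and muscle partner of Cox7a2, had 88, 9 and 6 counts, or 4.75, 0.365 and 0.692 CPM. Acta2, a smooth muscle actin gene among the mural markers, was also highest in replicate 1 (22.6, 0.648 and 1.27 CPM), as was the summed mural list (70.5, 27.9 and 19.7 CPM). The part of mural cells in the Cox7a1 reads was not tested. Cox7a2 exceeded Cox7a1 by 5.65 ± 1.87, with 3.82, 7.55 and 5.58 in replicates 1, 2 and 3.

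The 12 isoform pairs compared each had the same sign in 3 of 3 libraries. An exact permutation of signs, two-sided, gave p = 0.25 for each pair, the smallest that 3 libraries allow, and 0.25 after Benjamini-Hochberg adjustment over the 12 pairs, so no pair could pass 0.05. The smallest difference was that of Cox7a2 over Cox7a2l, a gene linked to the assembly of respiratory supercomplexes, with 0.64 ± 0.14. In CPM the pair was level (log2(CPM + 1) difference −0.002 ± 0.136), so that order rests on exon length.

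**Figure D3:**
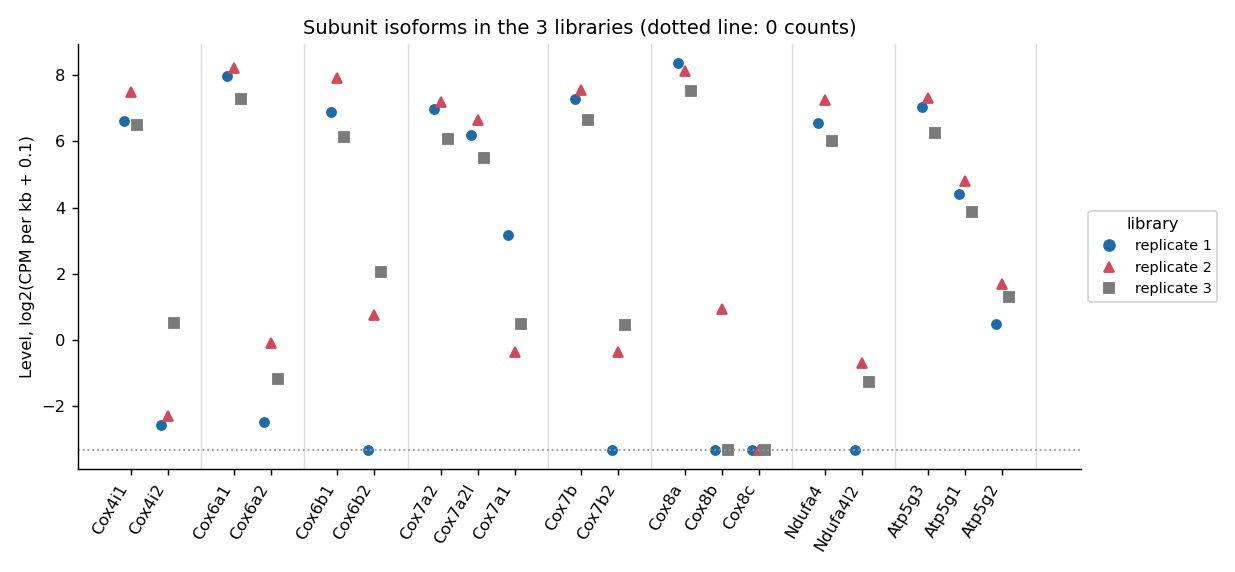
Level of subunit isoforms on the log2(CPM per kb + 0.1) scale, with 1 point per library and families separated by grey lines; the dotted line is the value of a count of 0. The broadly expressed complex IV forms lie above 5 and the tissue-restricted complex IV forms below 4 in all 3 libraries, and the c subunit genes order as Atp5g3, Atp5g1 and Atp5g2.

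Promoter sequence is shown for 3 genes: Cox8a and Cox8b, an isoform pair far apart in level, and Cox6a1, an abundant gene that holds the motif named below. RefSeq promoter windows (250 bases before to 50 after a start, GRCm38.p6) were matched for 77 of the 94 genes. The Cox6a1 stretch runs from 171 to 24 bases before the start (chr5:115348982-115349129, minus strand), with capitals marking each match to GCGC, 2 free bases and GCGC. With AT as the free bases this is the core of sites for nuclear respiratory factor NRF1, named the NRF1 core here, so the looser pattern contains it. The Cox8a and Cox8b stretches hold the 250 bases before the start (chr19:7217617-7217866 and chr7:140900447-140900696, both minus strand), with capitals marking CG pairs.
Cox6a1: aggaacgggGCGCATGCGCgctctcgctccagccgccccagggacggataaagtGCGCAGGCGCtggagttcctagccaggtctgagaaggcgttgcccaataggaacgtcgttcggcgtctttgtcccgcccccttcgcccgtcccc
Cox8a: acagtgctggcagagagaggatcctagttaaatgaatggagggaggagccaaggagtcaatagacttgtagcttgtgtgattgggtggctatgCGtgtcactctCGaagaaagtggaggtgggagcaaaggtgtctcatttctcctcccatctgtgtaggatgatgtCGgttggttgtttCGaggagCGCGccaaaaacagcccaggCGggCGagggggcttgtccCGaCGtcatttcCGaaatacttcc
Cox8b: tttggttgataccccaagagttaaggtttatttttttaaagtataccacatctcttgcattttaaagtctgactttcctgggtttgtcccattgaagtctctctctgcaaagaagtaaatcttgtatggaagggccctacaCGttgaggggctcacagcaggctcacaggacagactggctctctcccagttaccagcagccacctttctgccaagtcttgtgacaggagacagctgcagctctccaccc

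The Cox8a stretch holds 11 CG pairs and the Cox8b stretch 1. Over whole windows the 65 matched broad subunits and cytochrome c had a median of 20 CG pairs, the 4 matched restricted isoforms 8.5, and all 27025 genes with a window 8. The NRF1 core occurred in 7 of 77 members (9.09%; Atp5g2, Atp5k, Cox6a1, Ndufa11, Ndufaf4, Ndufaf5 and Uqcrc1) and in 1.07% of all genes, reading both strands. The looser pattern occurred in 21 members (27.3%) and 7.0% of all genes, CCGGAAGT, an ETS-type motif, in 6.49% and 4.31%, and TATAAA in 9.09% and 15.7%. The comparison genes were not selected by expression or by CG pairs, which had a median of 8 there and 20 in members. The part of CG content in the motif shares was not tested. Motif matches describe letters in a window, and Atp5g2, among the lowest members, holds the NRF1 letters as Cox6a1 does.

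ATP synthase has a catalytic F1 head, a rotating c ring in the membrane and a peripheral stalk that holds the head in place. By CPM per kb of annotated exon 2 F1 genes led complex V, and the other 3 F1 genes lay among the rest. With RefSeq-paired exons the c ring gene Atp5g3 lay close below the F1 gene Atp5b. Atp5a1, the alpha subunit (chromosome 18, 77773729 to 77782869, plus strand), measured 251, 192 and 122 CPM per kb in replicates 1, 2 and 3. Atp5b, the catalytic beta subunit (chromosome 10, 128083273 to 128090391, plus strand), measured 122, 263 and 133. The libraries ordered them differently, since Atp5a1 was the higher in replicate 1 and Atp5b in replicates 2 and 3. The F1 median exceeded the peripheral stalk median by 1.29 ± 0.09 on the log2(CPM per kb + 0.1) scale, positive in 3 of 3 libraries. With RefSeq-paired exons that difference was 0.27 ± 0.19.

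The c ring subunit is encoded by 3 genes whose products differ mainly in the targeting sequence that is cut off on import. Atp5g3 made up 83.6 ± 1.69% of their summed CPM per kb, Atp5g1 14.7 ± 0.858% and Atp5g2 1.67 ± 0.836%. Atp5g3 measured 131, 157 and 76.3 CPM per kb in replicates 1, 2 and 3, Atp5g1 21.2, 27.7 and 14.5, and Atp5g2 1.29, 3.10 and 2.34. Atp5g3 exceeded Atp5g1 by 2.50 ± 0.11 on the log2(CPM per kb + 0.1) scale. With RefSeq-paired exons that difference was 4.05 ± 0.11, and the shares of Atp5g3 and Atp5g1 were 93.0 ± 1.09% and 5.58 ± 0.373%. Annotated exons of Atp5g1 cover 4912 bases and those of Atp5g3 2181. Without length the genes kept that order, with 104, 136 and 71.2 CPM for Atp5g1 against 285, 343 and 166 for Atp5g3.

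The lowest complex V gene per kb was Atp5l, which encodes the g subunit, at 0.503, 1.07 and 1.04 CPM per kb (3.24, 6.93 and 6.69 CPM). Its annotated exons cover 6443 bases. In CPM Atp5g2 was lower in every library (2.16, 5.18 and 3.92), as it was with RefSeq-paired exons (5.14 against 10.3 CPM per kb). Of the 75-base stretches in its longest coding transcript, 76.0% also occurred in annotated transcripts of 10 other genes, among them the processed pseudogene Gm10221. Reads that aligned to more than 1 place were kept out of the gene counts and made up 16.5% to 32.7% of all entries. Such sharing touched 37 of the 94 genes, and in 16 it exceeded 20% of stretches. Chosen for mention after their values were seen, the 16 included Ndufb4 (35.2%), Uqcrb (29.1%) and Ndufs5 (24.1%), which were among the lower genes of their complexes at 9.11 ± 3.90, 13.8 ± 5.09 and 15.5 ± 11.1 CPM per kb. It also included Atp5h (36.5%) and Cox7c (25.0%), at 87.7 ± 25.1 and 153 ± 60.1. The median was 37.4 CPM per kb over those 16 and 46.1 over the other 61 broad subunits. The part of lost reads in any single level was not tested.

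Most respiratory chain genes deviated the same way between the libraries. Of the 88 genes averaging at least 1 CPM, 60 (68.2%) were highest in replicate 2, against 29.2% of all 15336 genes with that mean. In replicate 3, 62 (70.5%) had their lowest value, against 27.5% of all genes. Replicate 2 exceeded replicate 3 in 83 of the 88 (94.3%; 43.3% of all genes). Leaving out replicate 3, replicate 2 exceeded replicate 1 in 63 (71.6%; 47.8%). Leaving out replicate 2, replicate 1 exceeded replicate 3 in 64 (72.7%; 44.9%). The pattern was not particular to respiratory chain genes. Replicate 2 was highest for 76.5% of citric acid cycle, 65.3% of cytosolic ribosomal, 63.2% of proteasome, 62.5% of glycolytic and 59.2% of mitochondrial ribosomal genes with counts. Replicate 3 was lowest for 52.9%, 82.7%, 55.3%, 56.25% and 46.1% of these lists, in the same order.

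The size of this shift was a fraction of a doubling. The median deviation of a member from its own mean, on the log2(CPM + 1) scale, was 0.06, 0.40 and −0.44 in replicates 1, 2 and 3, while over all genes it was −0.02, −0.07 and 0.10. Relative to all genes the members thus stood at 0.08, 0.47 and −0.54. Library scaling cancels in these relative values, so other scalings do not test them. Over the 77 broad genes the highest library was 1.31 to 4.69 times the lowest, with a median of 2.05.

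The complexes did not share 1 pattern in replicate 1. Complex II stood 0.47 above its mean there (median of 4 genes), complex I 0.10 above, and complexes III and V 0.04 and 0.09 below (−0.04 and −0.09). Complex IV stood at −0.05 over its 20 genes and at 0.10 over the 12 broadly expressed ones. In replicate 3 the complexes lay between −0.38 (complex I) and −0.66 (complex II). Complex I assembly factors had medians of −0.27, 0.25 and −0.28, and Ndufaf6 went the other way, with 16.2, 7.01 and 10.4 CPM.

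**Figure D4:**
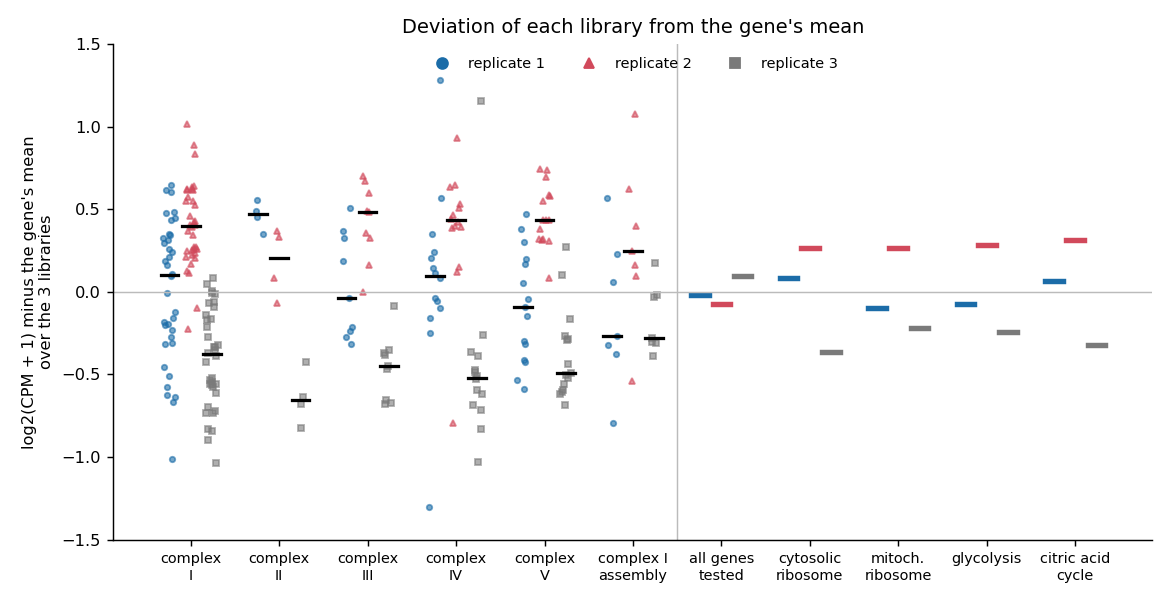
Deviation of each gene from its own mean over the libraries on the log2(CPM + 1) scale; points are the members averaging at least 1 CPM, black bars their medians, and the coloured bars at the right are medians of other gene lists. Medians of all 5 complexes are above 0 in replicate 2 and below 0 in replicate 3, where the median over all genes is 0.10.

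None of the 88 genes varied beyond the trend by the test across all genes. That test, edgeR's goodness of fit to 1 common level with trended dispersion and Benjamini-Hochberg adjustment, called 0 of the 88 and 0.209% of all 15336 genes at 0.05. At an unadjusted p under 0.05 it gave 4 of the 88 (4.55%), against 7.82% of all genes, and DESeq2's dispersion outliers held 0 members. The 4 were Cox6b1, with 83.2, 171 and 49.6 CPM (adjusted p = 0.474), Cox5a, with 184, 171 and 60.1 (0.556), Ndufa2, with 72.0, 62.9 and 22.3 (0.626), and Cox6b2 (0.597). The first 3 were lowest in replicate 3. With a common dispersion Cox6b2 was called, as were 780 genes in all. The median coefficient of variation was 37.0% over the 88 genes and 39.6% over all genes tested.

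Several features of the libraries also differed between replicates. Snap25 had the order of the respiratory genes, with 7606, 13127 and 6317 CPM in replicates 1, 2 and 3, while Malat1 ran the opposite way. The other 3 neuronal markers summed to 1432, 1390 and 1033 CPM, highest in replicate 1 and lowest in replicate 3. Singly, Rbfox3 (271, 320 and 238 CPM) and Syt1 (586, 587 and 483) were highest in replicate 2. Stmn2 (576, 482 and 313 CPM) was highest in replicate 1. Ttr, an ependymal and choroid plexus marker, set replicate 3 apart with 1.35, 3.97 and 54.6 CPM (edgeR adjusted p = 0.00172), while Foxj1, the other ependymal marker, had 1.30, 0.932 and 2.31 CPM. Oligodendrocyte precursor markers (2 of 2 detected) summed to 24.2, 43.2 and 63.7 CPM, endothelial markers (1 of 3) to 10.7, 27.9 and 6.81 CPM, and astrocyte markers to 1657, 1079 and 1095 CPM. Short protein-coding genes as a whole were also low in replicate 3. Those with under 1 kb of exon had a median deviation of −0.28 there and those with 1 to 2 kb −0.09. Protein-coding genes with 2 to 4 kb stood at 0.04 and those with 4 to 8 kb at 0.09. In the same order of length, members stood at −0.51, −0.44, −0.36 and −0.37, each below all genes of that length. The part of any of these features in the shift was not tested.

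Other genes of the pathway were measured from lists. The edgeR test called 0 genes in each of these 5 lists, and an unadjusted p under 0.05 was found for 3 of 40 assembly factors tested, 1 of 17 citric acid cycle genes, 2 of 16 ubiquinone genes, 2 of 15 regulators and 0 of 11 carriers. Over all genes the shares were 0.209% called and 7.82% at an unadjusted p under 0.05. The mitochondrial carriers and porins had a median of 22.9 ± 2.01 CPM per kb (11 of 11 detected), led by Slc25a4, an ADP/ATP carrier, at 506, 686 and 402 CPM in replicates 1, 2 and 3. The citric acid cycle genes had a median of 23.0 ± 6.74 CPM per kb (17 of 17), and the respiratory subunits lay 0.77 ± 0.22 above them on the log2(CPM per kb + 0.1) scale. Assembly factors outside the symbol rule (39 of 41 detected) had a median of 6.51 ± 1.86 CPM per kb. Ubiquinone donors and synthesis enzymes (15 of 16) had 4.08 ± 0.165, and regulators of mitochondrial biogenesis (15 of 15) 3.93 ± 0.694. Among the last, Ppargc1a, the coactivator known to induce this pathway, measured 213, 231 and 138 CPM, and Nrf1, a factor that binds the motif above, 25.7, 21.8 and 23.3 CPM. The regulators' median deviation in replicate 3 was 0.11, near the 0.10 of all genes, while that of the respiratory genes was −0.44. Of the 15 regulators 7 were highest and 5 lowest in replicate 3, Ppargc1a among the lowest.

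Of 4 housekeeping lists, the respiratory subunits stood well above 2 per kb of exon, 1 of them only narrowly without length. Their median exceeded that of 77 mitochondrial ribosomal protein genes by 2.24 ± 0.43 and that of 39 proteasome genes by 1.03 ± 0.25 on the log2(CPM per kb + 0.1) scale, in 3 of 3 libraries each. It differed from that of 16 glycolytic genes by −0.006 ± 0.183, positive in 2 of 3 libraries. It exceeded that of 79 cytosolic ribosomal protein genes by 0.30 ± 0.13, a difference that turned to −0.16 ± 0.06 with RefSeq-paired exons. The respiratory subunits had a median of 1569 bases of exon and protein-coding genes 4661, and without length, on log2(CPM + 1), they stood level with the cytosolic ribosomal genes (0.00139) and below the glycolytic and citric acid cycle genes (−1.56 and −0.62). In replicate 3 the cytosolic ribosomal, citric acid cycle, glycolytic and mitochondrial ribosomal lists were also below their means, with median deviations of −0.37, −0.32, −0.24 and −0.22.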

How the data were processed

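The 3 libraries were sequenced by the study's authors from polysome RNA pulled down with anti-EGFP. Deposited values were raw read counts per gene, made with STAR 2.0.0e and HTSeq on mm10, per the submitters' processing notes; the sources used here give no annotation, strand setting or library kit. Entries that name no gene were left out of totals (shares in the report). Counts were scaled to CPM of 8668527 to 24690301 assigned counts and divided by exon union length from GENCODE M21 (93 genes matched by symbol, 1 by an older name). Level differences used log2(CPM per kb + 0.1), and deviations log2(CPM + 1). Variation between libraries was tested with edgeR 4.0.16 (TMM, trended dispersion, goodness of fit to 1 level, genes averaging at least 1 CPM). DESeq2 1.42.0 was an alternative. The edgeR test was also run on counts simulated with its own fitted dispersions. Such counts cannot show its behaviour where gene dispersions leave that trend. The rule for names took complex II, cytochrome c, the isoform pairs, the 3 highest and 2 lowest members by CPM per kb of the other complexes and the assembly factors, called members, and leading genes of other lists; Ndufv1, Ndufv2, Ndufs1, Ndufs5, Ndufb4, Ndufaf6, Uqcrfs1, Cyc1, Uqcrc2, Ndufs7, Ndufc1, Atp5h, Cox5a, Nrf1 and the markers were named after their values were seen. Members and lists were chosen with earlier results of these data known. Intervals and floors cover counting error only. The edgeR p-values set a gene's spread between these libraries against the dispersion trend over all genes. The permutation of signs asks whether the 2 genes of a pair differ in level. Both rest on these 3 libraries only.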

Additional observations from a re-analysis of the deposited data

How the results depend on the processing

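No paired analysis was possible because there is 1 group. Alternatives chosen after seeing the data were RefSeq-paired exons, leaving out genes with shared stretches, leaving out restricted isoforms in the list comparisons, totals without 3 abundant RNAs, and detection without each replicate. Of the level differences, 65 settings stayed within 1 SD and 25 moved further. Complex II minus I was 0.22 with RefSeq exons. Complex III minus I was 0.18 without length, 0.57 with assembly factors and non-subunits, 0.0885 with the longest transcript, 0.0846 with coding length and −0.35 with RefSeq exons. Complex IV minus I was −1.27 with the mean of members, 1.79 without restricted isoforms, 1.41 with coding length, 1.04 with RefSeq exons and 0.58 without genes with shared stretches. Complex V minus I was 1.07 without length, 0.36 with the mean, 0.46 with non-subunits, 1.10 with the longest transcript, 1.34 with coding length and 1.07 with RefSeq exons. Without length, respiratory subunits stood at 1.5 against the mitochondrial ribosome, 0.00139 against the cytosolic ribosome, −1.56 against glycolysis, −0.62 against the citric acid cycle, 0.195 against the proteasome and 1.38 against all protein-coding genes. Against the cytosolic ribosome they stood at 0.45 without restricted isoforms and −0.16 with RefSeq exons. Cox7a2 minus Cox7a2l was −0.00234 without length, and the matrix arm minus the membrane arm of complex I was 0.37. Comparisons within complexes, whose alternatives were added after seeing the data, stayed within 1 SD in 17 settings, moved further in 12 and reversed in 1. A pseudocount of 1 lowered pairs with a restricted isoform, Cox8a minus Cox8c to 8.01. The cause of these shifts was not tested. With a common dispersion 1 member was called (Cox6b2), and 0 under the 9 other settings. Replicate 3, with the fewest counts, limits the restricted isoforms most.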
